A study of Homo sapiens with 4 samples.

Results

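The proteasome is the protease complex that degrades ubiquitin-tagged proteins in the cytosol and nucleus. Its core particle is a barrel of alpha and beta rings whose PSMB5, PSMB6 and PSMB7 subunits cut peptide bonds, and a regulatory particle of ATPases, scaffold proteins and a lid binds, unfolds and threads the substrates. Dedicated chaperones assemble the particles, alternative activators can cap the core, and cytokine-stimulated cells exchange the catalytic subunits for the immunoproteasome forms. Transcription of many of these genes is known to rise together through NFE2L1 when proteasome activity is limiting.

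Every probe set whose only annotated symbol began with PSMA, PSMB, PSMC, PSMD, PSME or PSMG and a digit was taken, with antisense genes left out. That gave 85 of 54675 probe sets, which stand for 45 genes. Of these, 77 probe sets stand for 41 genes of subunits, activators and assembly factors, called proteasome genes below. The other 8 probe sets belong to 4 genes that share only the name, PSMC3IP, PSME3IP1, PSMD7-DT and PSMD14-DT, and are given apart. PSMA6, PSMB11, PSMC5, PSMD7, PSMD13 and PSME2 had no probe set by this rule and were not analysed here.

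The arrays measured mRNA of HCT116 cells, a long-established line from a human colorectal carcinoma, after lipid transfection with TET1 siRNA (2 arrays) or control siRNA (2 arrays). TET1 encodes an enzyme that turns 5-methylcytosine in DNA into its oxidised forms, and the comparison addresses which transcripts change when it is depleted. All cells had the same medium and the same transfection reagent, and the labels name 1 TET1 siRNA group, so loss of TET1 and other effects of that siRNA cannot be told apart. Each array gives 1 signal per probe set in arbitrary units, and the duplicates limit the precision of every value. Log2 differences are TET1 siRNA minus control siRNA on the log2(signal + 16) scale, tested with limma on genes whose mean lay above a filter at the median of all probe sets (a signal of 13.1).

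Median signals over all probe sets were 13.9 and 14.4 on the TET1 siRNA arrays, against 14.3 and 15.5 on the control siRNA arrays. TET1 had signals of 14.6 and 15 with TET1 siRNA, against 58.1 and 59.6 with control siRNA, a log2 difference of -1.28 (SE 0.20, limma adjusted p = 9.28e-04). The size of that difference depends on the constant added to these dim signals, with -1.92 for a pseudocount of 1 and -0.64 for 64, and it passed with both. Of 8 markers of a colorectal epithelial line 6 were above the filter (the keratin gene KRT18 among them), while the intestinal markers CDX2 and LGALS4 lay below it and VIL1 just above it. Of the markers of other cell types, 3 of 7 fibroblast, 2 of 6 lymphocyte and 0 of 4 myeloid genes lay above the filter. Median signals in these lists were 11.2, 11.7 and 9.78 with TET1 siRNA, against 10.95, 8.88 and 10.9 with control siRNA. The brightest fibroblast gene, COL1A1, gave 337.4 and 451.9 with TET1 siRNA, against 296.2 and 258.9 with control siRNA. Some markers moved with the siRNA: the epithelial genes CDH1 (-1.17) and KRT8 (0.32) and the collagen gene COL1A1 (0.47) passed limma at adjusted p below 0.05, and their part in the values below was not tested.

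After TET1 siRNA, PSMB7 fell to 33.1% of its mean control signal, and it was the single proteasome gene that fell. Of 39 proteasome genes above the filter, 10 rose, 1 fell and 28 did not pass (limma adjusted p below 0.05). Among all 12389 genes tested, 11.2% rose and 10.6% fell. Groups did not overlap in 19 genes that were higher and 8 that were lower after TET1 siRNA, where 30.9% and 28.1% of all genes tested did so. The rises were small, between 1.15-fold and 1.35-fold by mean signal, and 4 of them were ATPases of the regulatory particle. The median log2 difference was 0.10 over the proteasome genes and 0.0098 over all genes tested.

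The number of rises leaned on the model. Brighter probe sets pass more often, and among genes above an upper-quartile filter 18.1% rose, against 11 of 38 proteasome genes there. Without the trend of variance on signal 0 proteasome genes rose by limma (3 at unadjusted p below 0.05), without TET1 siRNA replicate 1 there were 3 rises, without TET1 siRNA replicate 2 there were 2, and without control siRNA replicate 2 there were 5.

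**Figure D1:**
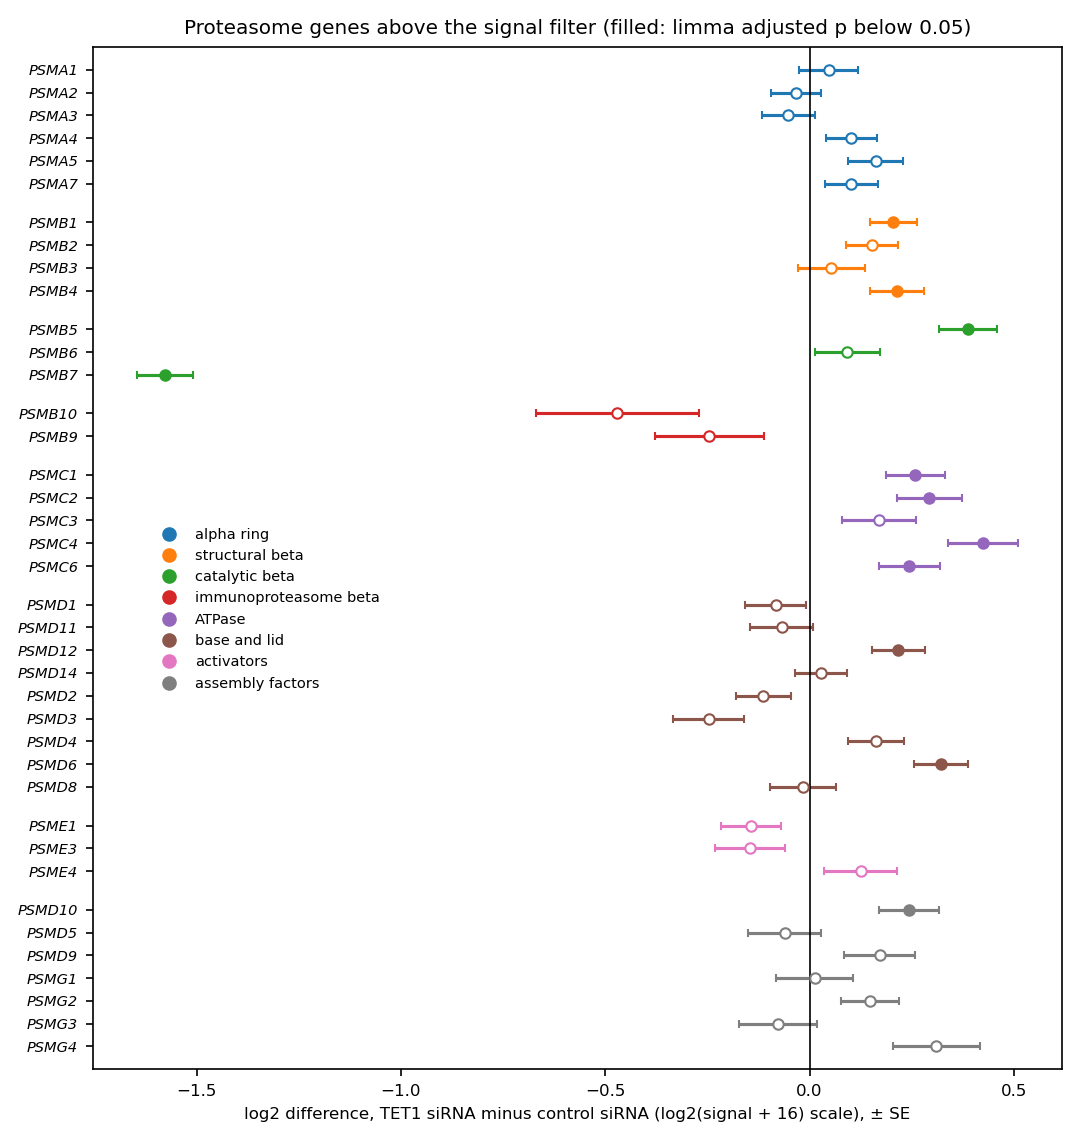
Log2 difference (TET1 siRNA minus control siRNA, log2(signal + 16) scale) with its SE for the 39 proteasome genes above the filter, coloured by role, with filled points past limma adjusted p below 0.05. PSMB7 lies at -1.58, and every other gene lies between -0.47 and 0.42.

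PSMB7 encodes the beta2 subunit, which carries the trypsin-like activity that cuts after basic residues. Its signal was 824.2 and 854.3 with TET1 siRNA, against 2467 and 2605 with control siRNA. Both TET1 siRNA arrays were low, the duplicates lay close together and the groups did not overlap. The means were 839 ± 21.3 with TET1 siRNA and 2536 ± 97.7 with control siRNA (SD, n = 2 each), a log2 difference of -1.58 (SE 0.069, limma adjusted p = 2.36e-07). It ranked 10th of 12389 genes by the size of its fall, and of all genes tested 4.29% fell by 1.5-fold or more and passed. PSMB7 was singled out with this fall already known. In a culture measured in bulk, fewer cells with the transcript and less transcript per cell cannot be told apart.

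A second PSMB7 probe set was near the floor of the array and carried no usable level. It gave 15.8 and 18.0 with TET1 siRNA, against 14.8 and 3.4 with control siRNA, and lay below the filter. The fall therefore rests on 1 probe set, and with the mean of both probe sets the log2 difference was -0.57 (adjusted p = 0.0149). RefSeq lists 1 pseudogene of PSMB7, whose share in the signal was not tested.

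The fall of PSMB7 was set against the rest of the core particle. The median log2 value of the other 12 core genes measured was 11.32 and 11.31 on the TET1 siRNA arrays, against 11.26 and 11.30 on the control siRNA arrays. With each array centred on that median, PSMB7 differed by -1.61 (SE 0.069, limma adjusted p = 1.92e-06, over all genes under that centring). Under this centring 11.4% of all genes were lower and 8.71% higher. The core medians lay close together on the 4 arrays, so this comparison largely repeats the one above and gives no separate support. It was also made with the fall of PSMB7 already known. Of the 39 proteasome genes PSMB7 was the 1 that was lower under this centring, and 3 were higher: PSMB5, PSMC4 and PSMD6.

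**Figure D2:**
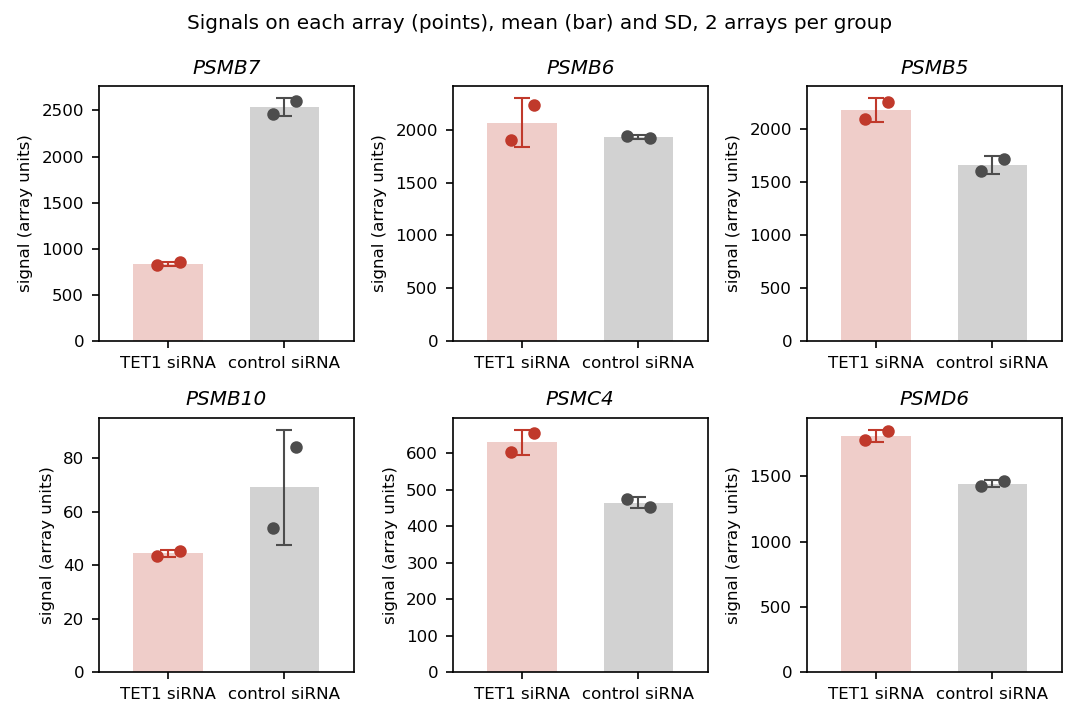
Signal of 6 proteasome genes on each array (points, array units on axes that start at 0), with the group mean (bar) and SD. PSMB7 is lower on both TET1 siRNA arrays, PSMB5, PSMC4 and PSMD6 are higher on both, PSMB6 overlaps between groups, and the control arrays of PSMB10 lie at 53.8 and 84.3.

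The other catalytic subunits of the constitutive core did not follow PSMB7. PSMB5, the beta5 subunit with chymotrypsin-like activity and the main target of bortezomib, rose. It gave 2091 and 2253 with TET1 siRNA, against 1597 and 1717 with control siRNA, with both TET1 siRNA arrays above both control arrays. The log2 difference was 0.39 (SE 0.071, limma adjusted p = 0.00248). PSMB6, the beta1 subunit with caspase-like activity, gave 1903 and 2232 with TET1 siRNA, against 1945 and 1920 with control siRNA. These groups overlapped, and its log2 difference was 0.092 (SE 0.080, limma adjusted p = 0.470).

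None of the immunoproteasome subunits passed. PSMB10 replaces PSMB7 in the immunoproteasome. It gave 43.4 and 45.4 with TET1 siRNA, against 53.8 and 84.3 with control siRNA, a log2 difference of -0.47 (SE 0.20, limma adjusted p = 0.121). The control arrays differed more from each other than the lower of them did from the TET1 siRNA arrays. Without control siRNA replicate 1 the difference was -0.73 (adjusted p = 0.0325), and without control siRNA replicate 2 it was -0.21 (adjusted p = 0.580). PSMB9, the beta1 counterpart, gave 137.5 and 120.8 with TET1 siRNA, against 169.0 and 143.5 with control siRNA. Its log2 difference was -0.25 (limma adjusted p = 0.225). PSMB8, the beta5 counterpart, lay below the filter with 0.6 to 1.8 on the 4 arrays.

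Among the structural beta subunits, 2 of 4 rose. PSMB1 gave 5794 and 5678 with TET1 siRNA, against 5065 and 4883 with control siRNA, a log2 difference of 0.21 (SE 0.058, limma adjusted p = 0.0262). PSMB4 gave 3816 and 4191 with TET1 siRNA, against 3473 and 3416 with control siRNA, a log2 difference of 0.21 (SE 0.065, limma adjusted p = 0.0364). A second PSMB4 probe set also rose when tested by itself (0.26, adjusted p = 0.0271), while the second PSMB1 probe set missed the threshold (0.17, adjusted p = 0.0833). PSMB2 (0.15) and PSMB3 (0.054) did not pass, and the PSMB3 groups overlapped. Other PSMB2 probe sets above the filter had 0.055 and -0.38 and did not pass either.

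The alpha ring, which gates entry to the core, showed no call at gene level. Of 7 genes PSMA8, the germ cell form of PSMA7, lay below the filter, and the other 6 had log2 differences between -0.052 (PSMA3) and 0.16 (PSMA5). PSMA1 gave 3353 and 3767 with TET1 siRNA, against 3322 and 3563 with control siRNA, and its groups overlapped. A second PSMA5 probe set had -0.57 and did not pass (limma adjusted p = 0.081, tested by itself). It gave 19.8 and 23.5 with TET1 siRNA, against 42.3 and 37.1 with control siRNA. PSMA2 also differed between its probe sets. The probe set that represents it gave a log2 difference of -0.033 (limma adjusted p = 0.768). The other fell, with 134.5 and 119.1 with TET1 siRNA, against 210.2 and 189.3 with control siRNA (log2 difference -0.60, adjusted p = 0.00801, each probe set tested by itself).

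The ATPases form the hexameric ring that unfolds substrates and pushes them into the core. Of 5 measured 4 rose, and in all 5 both TET1 siRNA arrays lay above both control arrays, an order seen in 30.9% of all genes tested. PSMC4 gave 604.3 and 653.9 with TET1 siRNA, against 475.4 and 453.3 with control siRNA, a log2 difference of 0.42 (SE 0.085, limma adjusted p = 0.00431). PSMC1 had 0.26 (adjusted p = 0.0251) and PSMC6 0.24 (adjusted p = 0.0363). PSMC3 did not pass (0.17, limma adjusted p = 0.220). PSMC2 rose by its representative probe set, with 2185 and 2077 with TET1 siRNA, against 1871 and 1610 with control siRNA (log2 difference 0.29, limma adjusted p = 0.0215). Its other probe sets gave -0.12 (adjusted p = 0.523) and -0.18 (adjusted p = 0.606). By the mean of all its probe sets, the representative one included, PSMC2 was at -0.0024.

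Of 9 base and lid genes, 2 rose and none fell. PSMD6, a lid subunit, gave 1775 and 1843 with TET1 siRNA, against 1425 and 1464 with control siRNA, a log2 difference of 0.32 (SE 0.067, limma adjusted p = 0.00532). PSMD12, also of the lid, had 0.22 (limma adjusted p = 0.0341), but its other probe set had -0.19 (adjusted p = 0.207). PSMD14, the lid deubiquitinase that removes ubiquitin chains from substrates, gave 2390 and 2476 with TET1 siRNA, against 2347 and 2423 with control siRNA (0.029, limma adjusted p = 0.808). The ubiquitin receptor gene PSMD4 (0.16) and the scaffold genes PSMD1 (-0.083) and PSMD2 (-0.11) did not pass. PSMD3, another lid subunit, had the lowest value of the group, -0.25 (limma adjusted p = 0.0654).

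PSMB5, PSMC4 and PSMD6 are the rises that also passed relative to the core median, and their promoters are shown for that reason. The sequences are RefSeq windows of GRCh38.p14 of 300 bases, most of each upstream of an annotated start, written 5′ to 3′ on the gene's strand. Capitals mark matches, on either strand, to a core of the antioxidant response element that NFE2L1 and NFE2L2 bind (TGACNNNGC), an ETS core (CCGGAAG) or a YY1 core (AAGATGGC). PSMB5 has 2 annotated starts.
PSMB5, first start, chr14:23035171-23035470, minus strand: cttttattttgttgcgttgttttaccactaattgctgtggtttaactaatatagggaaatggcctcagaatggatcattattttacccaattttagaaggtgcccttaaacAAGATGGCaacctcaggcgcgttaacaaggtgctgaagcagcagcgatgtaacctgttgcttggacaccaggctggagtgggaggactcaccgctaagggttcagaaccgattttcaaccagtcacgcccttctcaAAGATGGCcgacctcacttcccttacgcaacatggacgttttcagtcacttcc
PSMB5, second start, chr14:23034851-23035150, minus strand: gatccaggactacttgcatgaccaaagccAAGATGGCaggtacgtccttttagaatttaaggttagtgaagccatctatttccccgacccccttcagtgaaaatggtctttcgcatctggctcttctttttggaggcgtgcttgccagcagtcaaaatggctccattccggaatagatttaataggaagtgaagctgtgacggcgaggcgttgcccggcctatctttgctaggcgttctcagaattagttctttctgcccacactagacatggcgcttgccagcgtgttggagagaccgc
PSMC4, chr19:39970915-39971214, plus strand: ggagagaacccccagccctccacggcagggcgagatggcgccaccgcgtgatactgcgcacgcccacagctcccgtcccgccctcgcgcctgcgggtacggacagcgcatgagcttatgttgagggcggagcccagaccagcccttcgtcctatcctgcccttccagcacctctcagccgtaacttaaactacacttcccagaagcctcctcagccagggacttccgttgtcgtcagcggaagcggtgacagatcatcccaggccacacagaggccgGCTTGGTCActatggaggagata
PSMD6, chr3:64023445-64023744, minus strand: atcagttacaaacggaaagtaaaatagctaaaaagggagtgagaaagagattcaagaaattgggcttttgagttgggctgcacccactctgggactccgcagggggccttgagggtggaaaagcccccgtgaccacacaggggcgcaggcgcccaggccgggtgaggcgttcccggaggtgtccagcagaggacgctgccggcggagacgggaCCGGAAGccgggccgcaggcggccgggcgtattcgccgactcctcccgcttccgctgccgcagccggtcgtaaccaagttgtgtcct

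The 3 genes shown shared no one of these motifs. PSMC4 held 1 antioxidant response element core and PSMD6 held 1 ETS core. PSMB5 held 2 YY1 cores in the window of its first start and 1 in that of its second. Of the other rising genes, PSMC1, PSMC2, PSMC6 and PSMD12 held an ETS core, and PSMD12 also an antioxidant response element core. Both cores also lay in windows of genes that did not pass, among them PSMD9 and PSME4. In all, 35 of the 41 proteasome genes had a window, giving 41 windows. PSMB7 had no window, so its promoter was not searched. The antioxidant response element core lay in 31.7% of these windows and in 13.3% of 35116 windows of all genes, the ETS core in 26.8% and 10.3%, and the YY1 core in 12.2% and 2.89%. The proteasome windows are richer in CG, with a median of 22 CG dinucleotides against 14 for all windows. The part of base composition in these shares was not tested. Matches of different motifs were counted apart, also where they overlap.

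The activators, which open the core without ATP, did not pass. PSME1, part of the interferon-inducible cap, gave 983.6 and 923.9 with TET1 siRNA, against 1052 and 1056 with control siRNA (log2 difference -0.14, limma adjusted p = 0.200). PSME3, the nuclear cap, had -0.14 (limma adjusted p = 0.267), and PSME4 had 0.13 (limma adjusted p = 0.367).

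Among 7 assembly factors, 1 rose. PSMD10 (gankyrin), a chaperone of the base, gave 1351 and 1399 with TET1 siRNA, against 1210 and 1109 with control siRNA, a log2 difference of 0.24 (SE 0.074, limma adjusted p = 0.0351). Its other probe set had 0.074 (adjusted p = 0.590). PSMG4, a chaperone of the alpha ring, had 0.31 and missed the threshold (limma adjusted p = 0.0568). PSMG2 (0.15), PSMG1 (0.013), PSMG3 (-0.077), PSMD9 (0.17) and PSMD5 (-0.061) did not pass either.

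Taken probe set by probe set, 63 of 77 passed the filter. Of those, 11 rose and 2 fell, against 7.76% and 8.31% of all 27306 probe sets tested. Of 16 genes with more than 1 probe set above the filter, 0 had probe sets that passed in opposite directions, and in 6 (PSMA2, PSMB1, PSMB4, PSMC2, PSMD10, PSMD12) some passed and some did not. RefSeq lists pseudogenes for 18 of the 41 genes, so signals of those genes may include other transcripts.

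**Figure D3:**
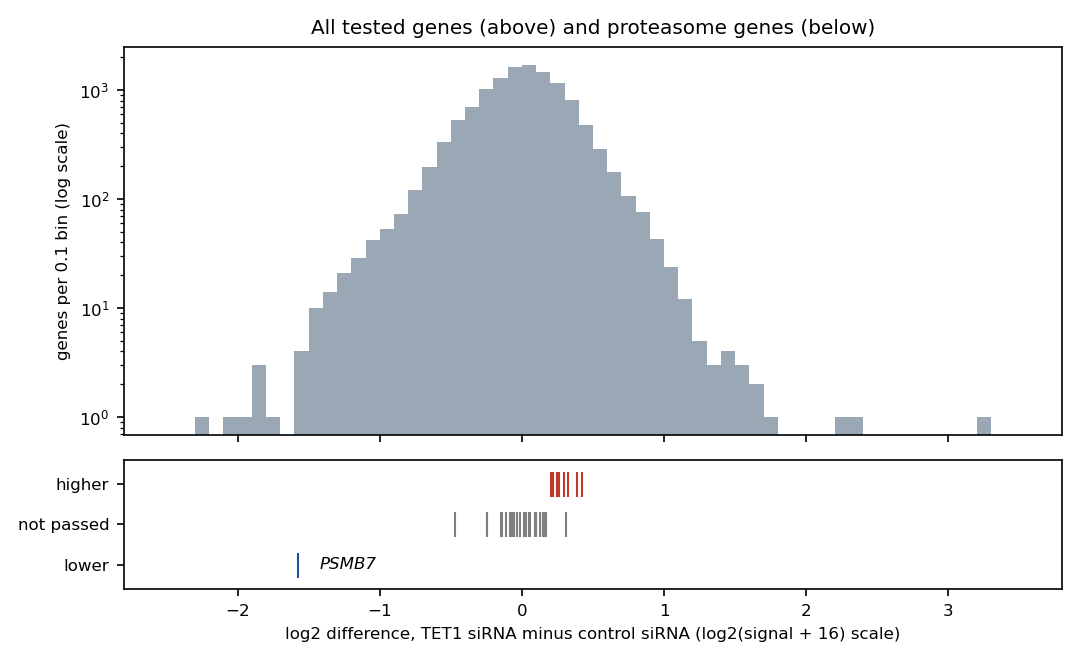
Log2 differences (TET1 siRNA minus control siRNA) of all 12389 genes tested, as counts per bin on a log axis (above), and of the 39 proteasome genes by call (below). PSMB7 lies in the thin lower tail, and the other proteasome genes lie in the body of the distribution.

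Genes around the proteasome were taken from 4 lists. Together 8 of 44 measured genes rose and 3 fell, where 11.2% and 10.6% of all 12389 genes tested did so. Above the upper-quartile filter 8 of 41 list genes rose and 3 fell, where 18.1% and 16.1% of all genes did so. No list was tested as a set. Of 15 proteasome-associated factors 5 rose and none fell, with a median log2 difference of 0.12. UCHL5, a deubiquitinase of the regulatory particle, gave 1295 ± 35.3 with TET1 siRNA and 861 ± 145 with control siRNA (SD, n = 2 each), a log2 difference of 0.59 (limma adjusted p = 0.00159), but without _x_at and _s_at probe sets it was at -0.43 (adjusted p = 0.153). PAAF1, which binds the ATPases, rose by 0.56, PSMF1, an inhibitor of the core, by 0.47, the ubiquitin ligase gene UBE3C by 0.37 and TXNL1, a thioredoxin of the regulatory particle, by 0.34. POMP, the maturation chaperone of the core, had 0.088 and did not pass (limma adjusted p = 0.327).

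Of 8 measured ubiquitin and shuttle factor genes none rose and 2 fell, with a median of -0.087: UBQLN2 (-0.35, limma adjusted p = 0.0444) and UBQLN1 (-0.27, limma adjusted p = 0.0366), which carry ubiquitinated proteins to the proteasome. In the list of NFE2L1 and its processing, 2 of 11 rose and 1 fell, with a median of 0.13. Over all genes tested 11.2% rose and 10.6% fell, and the counts in these short lists are too small to set apart from those shares. MAFF, a small partner of NFE2L1 and NFE2L2, rose by 0.42 and the ERAD gene SEL1L by 0.29, while BACH1, a repressor at the same DNA element, fell (-0.34). NFE2L1 itself had 0.070 (limma adjusted p = 0.686). Of 10 measured genes of class I antigen processing 1 rose, the chaperone gene CANX (0.34, but -0.10 without _x_at and _s_at probe sets), with a median of -0.077. With each array centred on its median, 0 of the 3 falls in these lists passed by limma (3 genes at unadjusted p below 0.05).

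**Figure D4:**
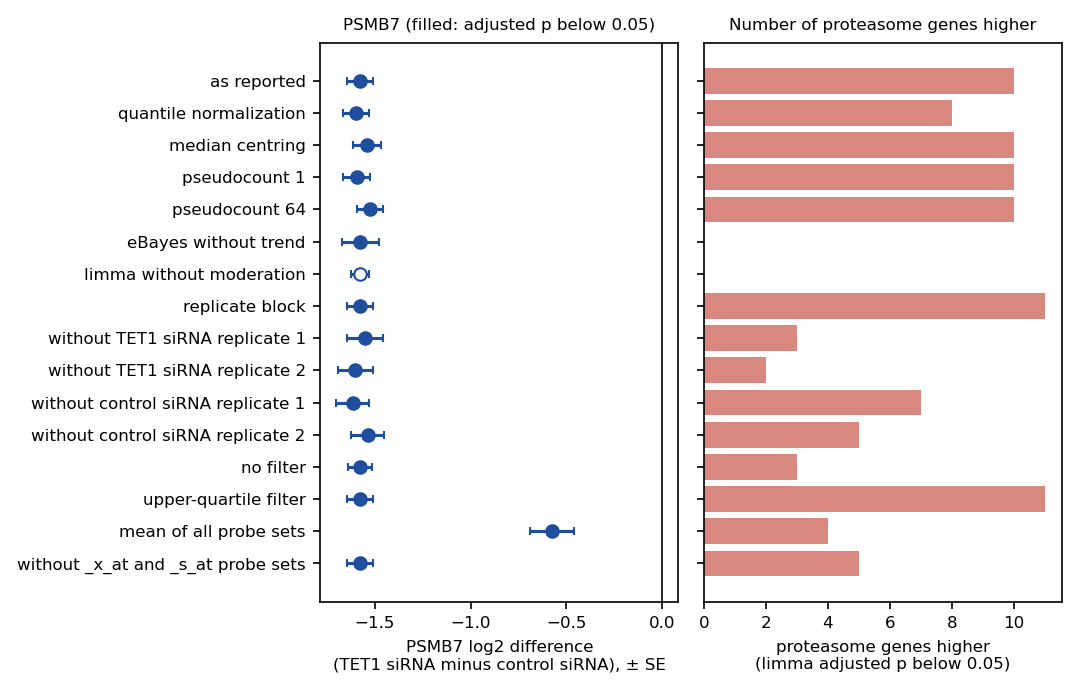
PSMB7 log2 difference (TET1 siRNA minus control siRNA) with its SE (left, filled where adjusted p is below 0.05) and the number of proteasome genes that rose (right) as reported and under each alternative. PSMB7 stays near -1.6 except with the mean of its probe sets (-0.57), and the number of rises runs from 0 to 11.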

How the data were processed

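The authors deposited 1 linear signal intensity per probe set and array. Per the labels' protocols, oligo(dT)-primed cDNA gave biotin-labelled cRNA, so signals come mainly from 3′ ends. All 4 columns have a trimmed mean of 100.01 (2% of probe sets cut at either end), so the deposited intensity values had been scaled array by array, which hides changes in total mRNA. The sources used here name no software or background correction.

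Values were used as log2(signal + 16), which understates changes of dim genes. Control probe sets (62) were left out. Each gene took the values of its probe set with the highest mean log2 signal, symbols were updated through RefSeq, and 12389 of 19775 genes above the median of all probe sets (a signal of 13.1) were tested. Groups came from the labels. The tests used limma 3.58.1 under R 4.3.3 (lmFit, eBayes with trend, two-sided, Benjamini-Hochberg over all genes or all probe sets, threshold 0.05), tested on simulated data. The fit has 2 residual degrees of freedom and 9.38 from the prior. An exact permutation test of these arrays cannot go below p = 0.33. Per the series' design text the duplicates are biological. Named genes are PSMB7, every member past the threshold or whose probe sets disagree, and the brightest member per role that did not pass. The measured gene on either side of PSMB7 and every list gene past the threshold are also named. TXNL1 went beyond a planned limit of 4 per list. Other members and list genes named with a value were chosen after their values were seen. Members and lists were chosen with earlier results of these data known. Alternatives covered normalization, pseudocount, variance model, filter, probe set choice, replicate block and leaving out each array. Figures were drawn with matplotlib 3.10.9.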

Additional observations from a re-analysis of the deposited data

How the results depend on the processing

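PSMB7 kept its direction and passed in 14 of 15 alternatives, and its log2 difference ran from -1.62 to -1.54 when 1 array was left out (relative to the other core genes, -1.64 to -1.58; TET1, -1.30 to -1.27). TET1 was at -1.92 with a pseudocount of 1 and -0.64 with 64. With probe sets averaged PSMB7 was at -0.57, and at -0.78 relative to the core genes. In limma without moderation PSMB7 (-1.58, adjusted p = 0.111), its value relative to the core genes (-1.61, adjusted p = 0.102) and TET1 (-1.28, adjusted p = 0.0999) did not pass. Rises among proteasome genes numbered 0 without a variance trend (3 at unadjusted p below 0.05) and 0 without moderation (7), 3 with no filter, 4 when probe sets were averaged, 5 without _x_at and _s_at probe sets, 0 at 1.5-fold or more, and 2 to 7 with 1 array left out, where the array left alone borrows the spread of the other group. PSMB5 and PSMC4 each passed in 13 of 15 alternatives and PSMD6 in 11. The other rises passed less often. PSMC6 passed in 8 of 15, PSMC2 and PSMD10 in 7 of 15 and PSMB4 in 6 of 15. PSMC1 passed in 8 of 14, PSMD12 in 7 of 14 and PSMB1 in 6 of 14. Falls numbered 0 without moderation (2 unadjusted), 2 with the upper-quartile filter (PSMB7 and PSMD3), with probe sets averaged or without _x_at and _s_at probe sets (PSMB7 and PSMA2 in both), and 1 to 2 with 1 array left out. The median of the proteasome genes was 0.068 with quantile normalization, 0.14 with median centring, 0.029 when probe sets were averaged, -0.0017 without _x_at and _s_at probe sets, and 0.044 to 0.12 with 1 array left out. PSMC2 turned to -0.0024 when probe sets were averaged and -0.12 without _x_at and _s_at probe sets, where UCHL5 (-0.43) and CANX (-0.10) also turned. TET1 lay below the upper-quartile filter and has no value there. The cause of these changes was not tested.

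Proteasome probe sets that rose numbered 6 with quantile normalization, 0 without a trend (3 unadjusted) or moderation (7 unadjusted), 3 with no filter, 4 without _x_at and _s_at probe sets, 0 at 1.5-fold and 1 to 8 with 1 array left out; those that fell numbered 1 without a trend, 0 without moderation (5 unadjusted) and 2 with any array left out. In the 4 associated lists, 8 genes rose and 3 fell. Rises were 0 without a trend (10 unadjusted) or moderation (7 unadjusted), 2 when probe sets were averaged, 4 without _x_at and _s_at probe sets, 1 at 1.5-fold and 5 to 6 with 1 array left out. Falls were 0 with median centring (3 unadjusted), without a trend (3), without moderation (1), with no filter (4), when probe sets were averaged (3) and at 1.5-fold, and 0 to 2 with 1 array left out (0 without either TET1 siRNA array). Over all genes 1393 rose and 1313 fell. These were 437 and 535 without a trend, 0 and 0 without moderation (1410 and 1261 unadjusted), 899 and 847 with no filter, 425 and 532 at 1.5-fold, 772 rises when probe sets were averaged, 882 without _x_at and _s_at probe sets, and 813 to 1157 rises and 879 to 983 falls with 1 array left out. Samples with the same replicate number showed no shared deviation (correlation of deviations 0.0058 across 12389 genes). This value cannot show whether they were prepared in pairs. With the replicate block 11 proteasome genes rose, 1 fell and PSMB7 stayed at -1.58.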

Other observations

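The nearest measured gene before PSMB7 in the annotation, the mitotic kinase gene NEK6, went the other way. It gave 686.5 and 687.2 with TET1 siRNA, against 482.1 and 378.8 with control siRNA, a log2 difference of 0.66 (SE 0.11, limma adjusted p = 0.00114). LOC100129034, a non-coding gene that overlaps PSMB7 in the annotation, gave 58.1 and 53.3 with TET1 siRNA, against 92.6 and 72.7 with control siRNA, and did not pass (-0.45, limma adjusted p = 0.0780).

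The genes that share only a name with the proteasome did not pass. PSME3IP1, whose product binds PSME3, had a log2 difference of 0.30 (limma adjusted p = 0.0515), PSMC3IP, a meiotic recombination gene, had -0.20 (limma adjusted p = 0.488), PSMD14-DT had -0.18 (limma adjusted p = 0.711) and PSMD7-DT lay below the filter. Of 8 antisense probe sets 4 lay above the filter and 0 passed by limma, and 0 of 5 probe sets with a second gene symbol passed.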
